A study of Mus musculus with 16 samples.

Results

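Chemokines and their receptors were followed in epididymal white adipose tissue, the fat pad beside the epididymis, of 21-week-old mice. The set holds every gene with an Entrez number whose symbol is Ccl, Cxcl, Cx3cl, Xcl, Ccr, Cxcr, Cx3cr, Xcr or Ackr followed by a digit. It has 61 members among 20101 genes, of which 38 are ligands and 23 are receptors. RNA-seq was done on 16 libraries, 4 mice in each of 4 groups: KO-labelled mice on a high-fat diet (HFD KO), WT-labelled mice on the high-fat diet (HFD WT), KO-labelled mice on chow (chow KO) and WT-labelled mice on chow (chow WT). The high-fat diet held 60% fat and was fed from 5 weeks of age, and chow held 5% fat. Sample titles name the genotypes KO and WT, while the genotype field speaks of a knockdown of ApoA4; the sources used here give neither how it was made nor the strain or sex. The series asks what apolipoprotein A-IV does to inflammation of white fat.

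The targeted gene went against the genotype labels. Apoa4 RNA stood at 8.69, 9.63, 7.23 and 4.93 FPKM in the HFD KO libraries, against 0.29, 0, 0.08 and 0 FPKM in the HFD WT libraries. It stood at 3.59, 1.96, 5.96 and 5.29 FPKM in the chow KO libraries, against 0.29, 0.25, 0.23 and 0.09 FPKM in the chow WT libraries. KO and WT below therefore name the libraries by their labels, and every direction between genotypes rests on these labels. FPKM counts fragments relative to transcript length and to all fragments mapped in the library. It carries no read counts, so the depth behind a value is unknown; the steps of circular RNA entries in the same table put the relative depth between 0.752 and 1.42. Genes of the epididymis were abundant in chow KO replicate 2 (12 listed genes summed to 12774 FPKM) and HFD KO replicate 4 (6874 FPKM) and present in HFD KO replicate 2 (357 FPKM), while no other library exceeded 52.5 FPKM. Calls that change without these 3 libraries are given beside the results they touch. Leaving them out keeps only replicates 1 and 3 of HFD KO, those with the highest macrophage marker sums of that group (7236 and 5184 FPKM). All WT-labelled libraries stay, so log2 changes with diet in WT-labelled mice are the same in that fit. New calls in WT-labelled mice then come only from the spread shared by all groups and from the adjustment.

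Chemokines are small secreted proteins that draw leukocytes along a gradient, and their receptors are G protein-coupled receptors. CC ligands such as Ccl2 draw monocytes through Ccr2, CXC ligands such as Cxcl1 and Cxcl2 draw neutrophils through Cxcr2, and Cxcl12 holds cells in tissue niches through Cxcr4. Atypical receptors, named Ackr, bind chemokines without the usual G protein signal and remove or carry them. In fat of obese rodents, chemokines are known for recruiting and retaining macrophages. The NF-kB transcription factors, which the kinase IKK activates, drive many inflammatory chemokine genes.

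Upstream sequences show what some of these genes share beyond their names. RefSeq windows on GRCm38.p6 were given for 46 of the 61 members. Each window ran from 250 bases before the transcription start to some bases past it, where the Ccl27a match lay (at +31). The NF-kB consensus, searched on both strands, lay in at least 1 window of 12 of the 46 members (26.1%), against 9.55% of all 27025 genes with a window; some genes have several windows, and counted by window it lay in 12 of 53 (22.6%), against 8.46% of all 32851. Among members with a window that rose on the high-fat diet in either genotype, 4 of 12 held it (33.3%), against 4 of 18 other members above the expression filter (22.2%) and 4 of 16 members under it (25.0%). Ccl2, Ccl4, Ccl7 and Cxcl16, which also rose, had no window and are not among the 12. The 200 bases before the start are printed for 3 neighbouring neutrophil-attracting ligands (Cxcl1, Cxcl2, Cxcl3), for Cxcl10, and for Ccl9, the second most abundant member. The window of Cxcl10 held the consensus, though the gene did not pass the test in any comparison of the main fit. Capitals mark the consensus matches, and each sequence reads 5′ to 3′ on the strand of its gene.
Cxcl1: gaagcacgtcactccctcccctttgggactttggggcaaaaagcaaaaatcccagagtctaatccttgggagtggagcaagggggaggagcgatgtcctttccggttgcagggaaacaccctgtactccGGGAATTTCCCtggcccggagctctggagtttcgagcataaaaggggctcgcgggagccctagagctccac
Cxcl2: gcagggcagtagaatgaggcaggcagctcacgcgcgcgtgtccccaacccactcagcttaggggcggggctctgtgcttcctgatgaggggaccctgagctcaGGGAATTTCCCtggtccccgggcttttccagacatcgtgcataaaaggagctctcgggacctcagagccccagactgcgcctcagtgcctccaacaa
Cxcl3: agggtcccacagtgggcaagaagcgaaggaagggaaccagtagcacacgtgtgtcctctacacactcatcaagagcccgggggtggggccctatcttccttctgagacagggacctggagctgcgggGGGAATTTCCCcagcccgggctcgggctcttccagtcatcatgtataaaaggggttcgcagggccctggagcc
Cxcl10: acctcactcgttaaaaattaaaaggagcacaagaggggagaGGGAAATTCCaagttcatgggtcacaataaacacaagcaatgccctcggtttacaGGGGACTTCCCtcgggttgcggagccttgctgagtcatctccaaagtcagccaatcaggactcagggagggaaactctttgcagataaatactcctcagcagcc
Ccl9: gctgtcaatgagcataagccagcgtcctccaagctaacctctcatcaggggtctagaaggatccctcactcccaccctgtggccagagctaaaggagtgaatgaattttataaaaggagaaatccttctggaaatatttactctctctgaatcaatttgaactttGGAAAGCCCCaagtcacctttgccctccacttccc
They lie at chr5:90891045-90891244 (plus strand), chr5:90903699-90903898 (plus strand), chr5:90785901-90786100 (plus strand), chr5:92348890-92349089 (minus strand) and chr11:83578637-83578836 (minus strand). Cxcl1, Cxcl2 and Cxcl3 carried the same run, GGGAATTTCCC, which matches on both strands. A match describes these letters only, and binding was not measured.

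A member was tested where it reached 1 FPKM in at least 4 of the 16 libraries. That left 40 members, 27 ligands and 13 receptors, and 21 stood under the filter. Per transcript length, Ccl6 was the most abundant member (mean over all libraries 264 FPKM) and Ccl9 the next (127 FPKM). Ccl11, the eosinophil chemoattractant eotaxin, averaged 64.4 FPKM. The most abundant receptor RNA was that of the scavenger Ackr3 (23.1 FPKM), and Ccr2 averaged 19.8 FPKM.

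**Figure D1:**
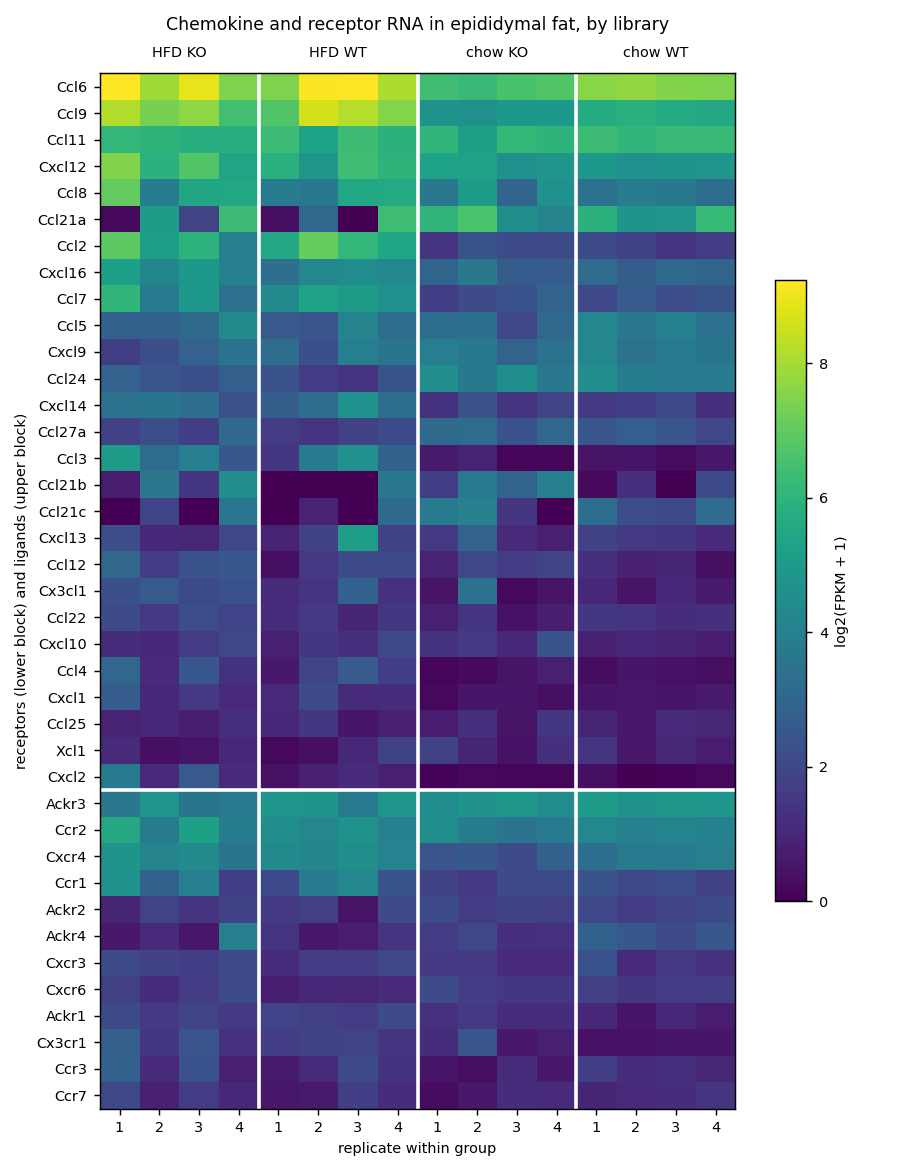
Log2(FPKM + 1) of 39 of the 40 members above the filter in each of the 16 libraries, ligands above the white line and receptors under it, each block ordered by mean level. Ccl6 and Ccl9 are the brightest ligands in the 8 HFD libraries, and Ccl2, Ccl7 and Ccl3 are brighter in the 8 HFD libraries than in the 8 chow libraries.

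The first comparison asks what the high-fat diet did in each genotype. In WT-labelled mice 12 of the 40 tested members rose and 3 fell, which is 37.5%, against 41.9% of all 12667 tested genes (24.6% higher and 17.2% lower). In KO-labelled mice 15 rose and 1 fell, which is 40%, against 38.9% of all tested genes (23.5% higher and 15.3% lower). The share of members that changed was thus close to the background in both genotypes, with a smaller share of falls than the background. The median log2 change of the members was 0.70 in KO-labelled and 0.54 in WT-labelled mice, against 0.08 and 0.06 over all tested genes. Groups did not overlap for 15 members in KO-labelled and 17 in WT-labelled mice, where the background was 28.7% and 46.9%. The same 11 members changed in the same direction in both genotypes, 11 of the 16 in KO-labelled and 11 of the 15 in WT-labelled mice. They included Ccl2, Ccl3, Ccl4, Ccl7, Ccl9, Cxcl1, Cxcl12, Cxcl14 and Cxcl16, which rose, and Ccl24, which fell. Among the members counted as rising, Ccl3, Ccl4, Cxcl1 and Cxcl2 reached 1 FPKM in HFD libraries only, and passed the filter through them. Without the 3 libraries with epididymal genes, 28 members passed the test in KO-labelled mice (23 higher and 5 lower), among them all 16 of the full fit, and 21 in WT-labelled mice, among them all 15. In the same fit 50.1% of all tested genes passed with diet in KO-labelled and 50.8% in WT-labelled mice. That fit holds the same WT-labelled libraries as the full one, and only replicates 1 and 3 of HFD KO. Changes are log2 differences of FPKM + 1 between group means with their SE, tested with limma and adjusted over all tested genes. The addition of 1 understates the change of low genes. The labels do not say more of the replicates than that there were 4 mice per group.

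On the scale of log2(FPKM + 1), monocyte-attracting CC ligands had the largest rises. By the ratio of group means in KO-labelled mice Cxcl2 came first (52.6, from a chow KO mean of 0.095 FPKM), before Ccl3 (35.2) and Ccl2 (17.9). Ccl2, the main ligand of Ccr2, lies at 82035577 to 82037452 on chromosome 11 (GRCm38.p6). It stood at 119.57, 34.55, 61.57 and 14.68 FPKM in HFD KO libraries, against 1.65, 4.32, 3.39 and 3.48 FPKM in chow KO libraries. In HFD WT libraries it stood at 46.67, 133.18, 67.98 and 41.81 FPKM, against 3.22, 2.5, 1.59 and 2.23 FPKM in chow WT libraries. Every HFD library was above every chow library, and the HFD mice spread over a far wider range. The log2 change was 3.47 ± 0.49 in KO-labelled mice (adjusted p = 0.000201) and 4.31 ± 0.49 in WT-labelled mice (adjusted p = 3.02e-05).

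Ccl7, a second monocyte chemoattractant that also binds Ccr2, lies next to Ccl2 on chromosome 11 (82045712 to 82047525). Its values were 66.45, 12.64, 29.23 and 10.27 FPKM in HFD KO, against 2.25, 3.4, 3.97 and 6.76 FPKM in chow KO libraries. They were 20.5, 38.81, 32.04 and 24.21 FPKM in HFD WT, against 3.04, 5.25, 3.59 and 4.29 FPKM in chow WT libraries. HFD and chow libraries did not overlap in either genotype, and replicate 1 was the highest HFD KO library for both Ccl2 and Ccl7. The log2 change of Ccl7 was 2.29 ± 0.44 in KO-labelled (adjusted p = 0.00145) and 2.55 ± 0.44 in WT-labelled mice (adjusted p = 0.000535). Other members of this chromosomal group did not pass the test in either genotype over all 16 libraries. Ccl8 (log2 change 2.44 ± 0.65, adjusted p = 0.00777) and Ccl12 (1.24 ± 0.48, adjusted p = 0.0472) passed it in KO-labelled mice without the 3 libraries with epididymal genes. Ccl8, a monocyte chemoattractant, averaged 57.4 ± 48.8 FPKM in HFD KO and 30.2 ± 19.98 FPKM in HFD WT, against 19.2 ± 11.9 FPKM in chow KO and 11.3 ± 2.29 FPKM in chow WT (SD, n = 4 each). Ccl12, a close relative of Ccl2 in mice, averaged 4.58 ± 2.13 FPKM in HFD KO and 2.19 ± 1.44 FPKM in HFD WT, against 2.14 ± 0.913 and 0.853 ± 0.448 FPKM in chow KO and chow WT. Ccl11 had similar levels in all 4 groups, with means between 59.2 FPKM in chow KO and 73.4 FPKM in chow WT, and its log2 change with diet was 0.07 ± 0.22 in KO-labelled and −0.23 ± 0.22 in WT-labelled mice.

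The macrophage inflammatory protein ligands, in a second group on chromosome 11, rose as well. Ccl3, a ligand of Ccr1 (83647843 to 83649378), stood at 31.72, 8.28, 14.74 and 4.68 FPKM in HFD KO, against 0.6, 0.86, 0.11 and 0.12 FPKM in chow KO libraries. It stood at 1.72, 13.04, 24.61 and 6.25 FPKM in HFD WT, against 0.41, 0.43, 0.2 and 0.5 FPKM in chow WT libraries. No chow library reached 1 FPKM, and all 8 HFD libraries were above it. The log2 change was 3.21 ± 0.58 in KO-labelled (adjusted p = 0.000936) and 2.73 ± 0.58 in WT-labelled mice (adjusted p = 0.00194). Ccl4, another chemoattractant of monocytes and T cells, lies beside it. Its values were 7.32, 1.21, 4.72 and 1.54 FPKM in HFD KO, against 0.12, 0.17, 0.4 and 0.74 FPKM in chow KO libraries. They were 0.56, 2.76, 5.22 and 2.27 FPKM in HFD WT, against 0.25, 0.47, 0.37 and 0.26 FPKM in chow WT libraries. HFD libraries were again above all chow libraries of their genotype, with HFD WT replicate 1 only just so. The log2 change of Ccl4 was 1.60 ± 0.42 (adjusted p = 0.00784) in KO-labelled and 1.31 ± 0.42 (adjusted p = 0.0205) in WT-labelled mice; the second call was lost without HFD WT replicate 2 (adjusted p = 0.0523) or replicate 3 (adjusted p = 0.0759).

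Ccl9, which signals through Ccr1, lies at 83572917 to 83578636 on chromosome 11, beside Ccl6 (83587886 to 83593087), a related myeloid ligand. Ccl9 stood at 289.35, 160.01, 199.92 and 86.55 FPKM in HFD KO, against 26.09, 24.11, 29.04 and 29.56 FPKM in chow KO libraries. It stood at 103.91, 400.35, 294.24 and 180.97 FPKM in HFD WT, against 50.42, 56.64, 50.98 and 47.17 FPKM in chow WT libraries. The chow libraries of each genotype lay close together and well under every HFD library. The log2 change was 2.59 ± 0.37 in KO-labelled (adjusted p = 0.000191) and 2.06 ± 0.37 in WT-labelled mice (adjusted p = 0.000597). Ccl6 stood at 596.73, 242.97, 474.18 and 173.82 FPKM in HFD KO, against 84.49, 75.52, 93.8 and 103.92 FPKM in chow KO libraries. It stood at 173.97, 577.25, 602.01 and 272.81 FPKM in HFD WT, against 191.98, 215.13, 179.19 and 173.71 FPKM in chow WT libraries. HFD and chow libraries overlapped in WT-labelled mice through HFD WT replicate 1, and did not in KO-labelled mice. Ccl6 rose in KO-labelled mice (log2 change 1.89 ± 0.40, adjusted p = 0.00231), and in WT-labelled mice its log2 change was 0.92 ± 0.40 (adjusted p = 0.0759, and 0.0325 without the 3 libraries with epididymal genes). The interaction, which tests the difference between the genotypes in the diet effect, was 0.97 ± 0.56 for Ccl6 (adjusted p = 0.616).

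Ccl24, an eosinophil chemoattractant that signals through Ccr3, was the member that fell in both genotypes. It lies on chromosome 5 (135569935 to 135573123). Its values were 6.43, 4.38, 3.77 and 5.86 FPKM in HFD KO, against 22.09, 12.16, 23.32 and 12.13 FPKM in chow KO libraries. They were 4.16, 2.03, 1.61 and 4.28 FPKM in HFD WT, against 22.43, 13.74, 13.33 and 12.73 FPKM in chow WT libraries. Every HFD library was under every chow library. The log2 change was −1.55 ± 0.28 in KO-labelled (adjusted p = 0.000969) and −2.08 ± 0.28 in WT-labelled mice (adjusted p = 0.000105).

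**Figure D2:**
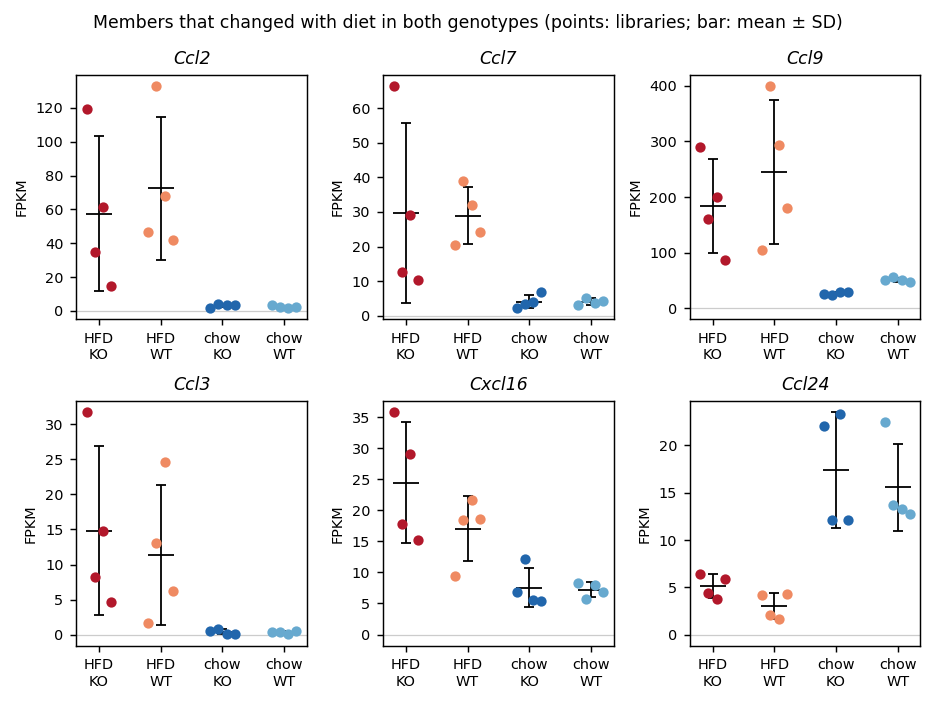
FPKM of 6 members that changed with diet in both genotypes, with each point a library and the bar the mean ± SD of 4 libraries. The HFD groups lie above the chow groups of the same genotype for Ccl2, Ccl7, Ccl9, Ccl3 and Cxcl16 and under them for Ccl24, and HFD values spread more widely for the 5 that rose.

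Macrophage markers moved with these ligands. The 10 listed genes, Cd68, Adgre1 and Tyrobp among them, summed to 7236, 3288, 5184 and 1893 FPKM in the HFD KO libraries and 1490.4, 5530.3, 6498 and 3099 FPKM in the HFD WT libraries. The sums were 686 to 834 FPKM in chow KO and 828 to 906 FPKM in chow WT, and no member of the list was at 0 in all 4 libraries of a group. Of the 10, 9 rose in KO-labelled and 8 in WT-labelled mice, where 23.5% and 24.6% of all tested genes rose. The order of the HFD KO libraries by this sum, replicates 1, 3, 2 and 4, was also their order for Ccl2, Ccl3, Ccl7, Ccl9 and Ccl6. It was not that of Ccl4 (replicates 1, 3, 4 and 2). In HFD WT the order by the sum, replicates 3, 2, 4 and 1, was that of Ccl3, Ccl4 and Ccl6 and not that of Ccl2, Ccl7 or Ccl9. In bulk tissue, a change in the number of cells of a type and a change in RNA per cell cannot be told apart, and the part that macrophage content has in these rises was not tested.

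Ccr2, the receptor of Ccl2 and a marker of recruited monocytes, lies on chromosome 9 (124101918 to 124109140) and did not pass the test in either genotype. It stood at 46.48, 12.52, 36.72 and 13.53 FPKM in HFD KO, against 22.91, 14.24, 10.33 and 12.69 FPKM in chow KO libraries. It stood at 22.9, 18.51, 24.91 and 15.33 FPKM in HFD WT, against 18.82, 15.14, 16.83 and 15.71 FPKM in chow WT libraries. HFD and chow libraries overlapped in both genotypes, with HFD KO replicates 1 and 3 above all the others. The log2 change of Ccr2 was 0.66 ± 0.35 in KO-labelled (adjusted p = 0.151) and 0.26 ± 0.35 in WT-labelled mice (adjusted p = 0.576). In KO-labelled mice Ccr2 passed the test without HFD KO replicate 2 (adjusted p = 0.0425) or replicate 4 (adjusted p = 0.0486), and without the 3 libraries with epididymal genes (log2 change 1.45, adjusted p = 0.00114).

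Ccr1, a receptor of Ccl3 and Ccl9 on monocytes and neutrophils, averaged 12.2 ± 10.3 FPKM in HFD KO and 9.78 ± 7.47 FPKM in HFD WT, against 2.698 ± 0.647 FPKM in chow KO and 3.35 ± 0.700 FPKM in chow WT (SD, n = 4 each). Its log2 change was 1.45 ± 0.56 in KO-labelled (adjusted p = 0.0531) and 1.02 ± 0.56 in WT-labelled mice (adjusted p = 0.159). Without the 3 libraries with epididymal genes Ccr1 passed the test in KO-labelled mice (log2 change 2.38, adjusted p = 0.00332). Ccr3, the eosinophil receptor for Ccl11 and Ccl24, averaged 3.01 ± 2.49 FPKM in HFD KO, against 0.615 ± 0.427 FPKM in chow KO, and rose (log2 change 1.12 ± 0.40, adjusted p = 0.0377). This call was lost without any of HFD KO replicate 1 or 3 or chow KO replicate 1, 2 or 4, with adjusted p up to 0.133. In WT-labelled mice Ccr3 averaged 1.69 ± 1.19 FPKM on the high-fat diet and 1.505 ± 0.542 FPKM on chow (log2 change 0.02 ± 0.40). Ccr7, which guides dendritic cells to lymph nodes, and Cxcr3, a receptor of activated T cells, did not pass the test in either genotype over all 16 libraries; without the 3 with epididymal genes Ccr7 passed it in KO-labelled mice (log2 change 0.92 ± 0.34, adjusted p = 0.0408). Ccr7 averaged 1.75, 1.17, 0.835 and 1.30 FPKM in HFD KO, HFD WT, chow KO and chow WT, and Cxcr3 2.80, 2.08, 1.56 and 2.15 FPKM in the same order.

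Cx3cr1, the fractalkine receptor of monocytes and resident macrophages, rose in WT-labelled mice, with 2.23, 2.43, 2.7 and 1.63 FPKM in HFD WT against 0.36, 0.35, 0.43 and 0.47 FPKM in chow WT libraries (log2 change 1.20 ± 0.36, adjusted p = 0.0162). In KO-labelled mice it stood at 6.01, 1.75, 4.41 and 1.52 FPKM on the high-fat diet, against 1.32, 4.37, 0.53 and 0.77 FPKM on chow (log2 change 0.74 ± 0.36, adjusted p = 0.12). The highest chow KO library was replicate 2, which held epididymal genes, and without the 3 such libraries Cx3cr1 passed the test (log2 change 1.74, adjusted p = 7.47e-05). Exons of Cx3cr1 overlap the antisense gene Gm33858 over 78 bases. Its ligand Cx3cl1, a membrane-bound chemokine, averaged 4.03 ± 0.791 FPKM in HFD KO and 2.65 ± 2.42 FPKM in HFD WT, against 2.73 ± 4.84 FPKM in chow KO and 0.780 ± 0.338 FPKM in chow WT. Its highest value, 10 FPKM, was in chow KO replicate 2, and without the 3 libraries with epididymal genes it passed the test in KO-labelled (log2 change 1.78, adjusted p = 0.00329) and WT-labelled mice (0.87, adjusted p = 0.035). Cxcr6, a receptor of tissue T and NK cells, fell in WT-labelled mice, to 1.01 ± 0.224 FPKM in HFD WT against 2.10 ± 0.276 FPKM in chow WT (log2 change −0.63 ± 0.19, adjusted p = 0.0157). In KO-labelled mice Cxcr6 averaged 2.21 ± 0.733 FPKM on the high-fat diet and 2.29 ± 0.798 FPKM on chow. The T and NK cell list, with 9 tested members, had 3 members that fell in WT-labelled mice, Cd3e, Cd3g and Cd3d, and 1 that rose in KO-labelled mice, Cd8b1. Over all tested genes, 17.2% fell in WT-labelled and 23.5% rose in KO-labelled mice. The 13 listed genes summed to 10.8 to 30.9 FPKM in HFD KO, 8.14 to 13.4 FPKM in HFD WT, 14.3 to 90.4 FPKM in chow KO and 13.5 to 21.8 FPKM in chow WT libraries. The part of T and NK cell content in the Cxcr6 values was not tested.

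Cxcl16, the transmembrane ligand of Cxcr6 and a scavenger receptor, rose while Cxcr6 did not. It stood at 35.84, 17.86, 29.04 and 15.15 FPKM in HFD KO, against 6.89, 12.13, 5.64 and 5.46 FPKM in chow KO libraries. It stood at 9.45, 18.38, 21.65 and 18.64 FPKM in HFD WT, against 8.33, 5.68, 8.03 and 6.84 FPKM in chow WT libraries. HFD and chow libraries did not overlap within either genotype, and the log2 change was 1.56 ± 0.30 in KO-labelled (adjusted p = 0.00134) and 1.09 ± 0.30 in WT-labelled mice (adjusted p = 0.00934). Exons of Cxcl16 overlap Zmynd15 on the other strand over 552 bases, and the sources used here do not say whether counting used strand. Cxcl14, a chemokine made by stromal and epithelial cells, stood at 10.34, 11.03, 8.85 and 3.88 FPKM in HFD KO, against 1.56, 3.92, 1.7 and 2.71 FPKM in chow KO libraries. It stood at 5.56, 8.81, 24.61 and 9.07 FPKM in HFD WT, against 1.97, 2.31, 3.09 and 1.42 FPKM in chow WT libraries. Only HFD KO replicate 4 overlapped the chow libraries of its genotype. Cxcl14 rose by 1.42 ± 0.38 on the log2 scale in KO-labelled (adjusted p = 0.00842) and 1.85 ± 0.38 in WT-labelled mice (adjusted p = 0.00148).

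Cxcl12, the stromal ligand of Cxcr4, averaged 96.5 ± 62.2 FPKM in HFD KO and 58.1 ± 23.0 FPKM in HFD WT, against 32.2 ± 7.68 FPKM in chow KO and 26.7 ± 1.90 FPKM in chow WT (SD, n = 4 each). It rose by 1.36 ± 0.38 on the log2 scale in KO-labelled mice (adjusted p = 0.0119). In WT-labelled mice the log2 change was 0.996 ± 0.38 at an adjusted p of 0.0483, a call lost in 13 of the 16 fits that left out 1 library, with adjusted p up to 0.148 (without HFD WT replicate 3). Leaving out a KO-labelled library did not alter that log2 change, and gave an adjusted p of at most 0.0572. Cxcr4, which marks many leukocytes and vascular cells (chromosome 1, 128588199 to 128592299), stood at 26.49, 16.73, 19.71 and 11.06 FPKM in HFD KO, against 4.47, 4.9, 3.32 and 6.13 FPKM in chow KO libraries. It stood at 19.25, 17.89, 22.77 and 16.25 FPKM in HFD WT, against 9.16, 13.48, 13.19 and 14.54 FPKM in chow WT libraries. HFD libraries were above chow libraries in both genotypes, with chow KO the lowest group. Cxcr4 rose in KO-labelled mice (log2 change 1.73 ± 0.22, adjusted p = 0.000112), and in WT-labelled mice its log2 change was 0.57 ± 0.22 (adjusted p = 0.0533, and 0.0201 without the 3 libraries with epididymal genes).

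Of the neutrophil-attracting ligands, Cxcl1 averaged 2.39 ± 2.05 FPKM in HFD KO and 1.79 ± 1.10 FPKM in HFD WT, against 0.347 ± 0.147 FPKM in chow KO and 0.482 ± 0.075 FPKM in chow WT. It rose by 1.17 ± 0.31 on the log2 scale in KO-labelled (adjusted p = 0.00815) and 0.84 ± 0.31 in WT-labelled mice (adjusted p = 0.0387), where the call was lost without HFD WT replicate 2 (adjusted p = 0.135) or without any 1 chow WT library (adjusted p up to 0.0779). Cxcl2, its close relative whose printed upstream sequence holds the same NF-kB run, stood at 12.62, 1.18, 5.05 and 1.15 FPKM in HFD KO, against 0.07, 0.14, 0.08 and 0.09 FPKM in chow KO libraries. It stood at 0.33, 0.79, 1.19 and 0.74 FPKM in HFD WT, against 0.3, 0, 0.07 and 0.14 FPKM in chow WT libraries. HFD and chow libraries did not overlap in either genotype. Cxcl2 rose in KO-labelled mice (log2 change 2.02 ± 0.43, adjusted p = 0.00266), and its log2 change in WT-labelled mice was 0.63 ± 0.43 (adjusted p = 0.262, and 0.0329 without the 3 libraries with epididymal genes). It reached 1 FPKM in 5 libraries, 4 of them HFD KO, and so passed the filter only through the group where it was high. Ccl3 (8 libraries), Cxcl1 (8) and Ccl4 (7) likewise reached 1 FPKM in HFD libraries only. Ccl22, which draws regulatory T cells through Ccr4, also rose in KO-labelled mice, to 2.92 ± 0.785 FPKM in HFD KO against 0.877 ± 0.537 FPKM in chow KO (log2 change 1.08 ± 0.21, adjusted p = 0.00134). In WT-labelled mice Ccl22 averaged 1.498 ± 0.444 FPKM on the high-fat diet and 1.56 ± 0.241 FPKM on chow.

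The 4 atypical receptors moved differently. Ackr1, a venular receptor that carries chemokines across endothelium, rose in WT-labelled mice, to 2.61 ± 0.572 FPKM in HFD WT against 0.825 ± 0.332 FPKM in chow WT (log2 change 0.99 ± 0.17, adjusted p = 0.000553). In KO-labelled mice it averaged 2.43 ± 0.598 FPKM on the high-fat diet and 1.503 ± 0.303 FPKM on chow (log2 change 0.45 ± 0.17, adjusted p = 0.0526), and passed the test without the 3 libraries with epididymal genes (0.73 ± 0.20, adjusted p = 0.00858). Its exons overlap Cadm3 over 361 bases on the same strand. Ackr4, which removes Ccl19 and Ccl21, fell in WT-labelled mice, with 1.64, 0.5, 0.67 and 1.65 FPKM in HFD WT against 6.33, 4.78, 3.28 and 4.65 FPKM in chow WT libraries (log2 change −1.47 ± 0.55, adjusted p = 0.045). That call was lost in 11 of the 16 fits that left out 1 library, with adjusted p up to 0.111 (without HFD WT replicate 2). Leaving out a KO-labelled library did not alter that log2 change, and gave an adjusted p of at most 0.0552. In KO-labelled mice Ackr4 stood at 0.56, 1.22, 0.52 and 14.65 FPKM on the high-fat diet, where the highest value came from replicate 4, a library with epididymal genes. Without the 3 such libraries Ackr4 fell in KO-labelled mice too (log2 change −0.78, adjusted p = 0.0322). Exons of Ackr4 overlap Acad11 on the other strand over 479 bases. Ackr2, which scavenges inflammatory CC ligands, averaged 1.99, 2.02, 2.51 and 2.82 FPKM in HFD KO, HFD WT, chow KO and chow WT, and Ackr3, which scavenges Cxcl12, averaged 15.7, 23.7, 24.02 and 28.9 FPKM in the same order. Neither passed the test, and the log2 change of Ackr3 was −0.67 ± 0.26 in KO-labelled (adjusted p = 0.0569) and −0.32 ± 0.26 in WT-labelled mice. Without the 3 libraries with epididymal genes Ackr3 fell in KO-labelled mice (log2 change −0.98, adjusted p = 0.00946).

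**Figure D3:**
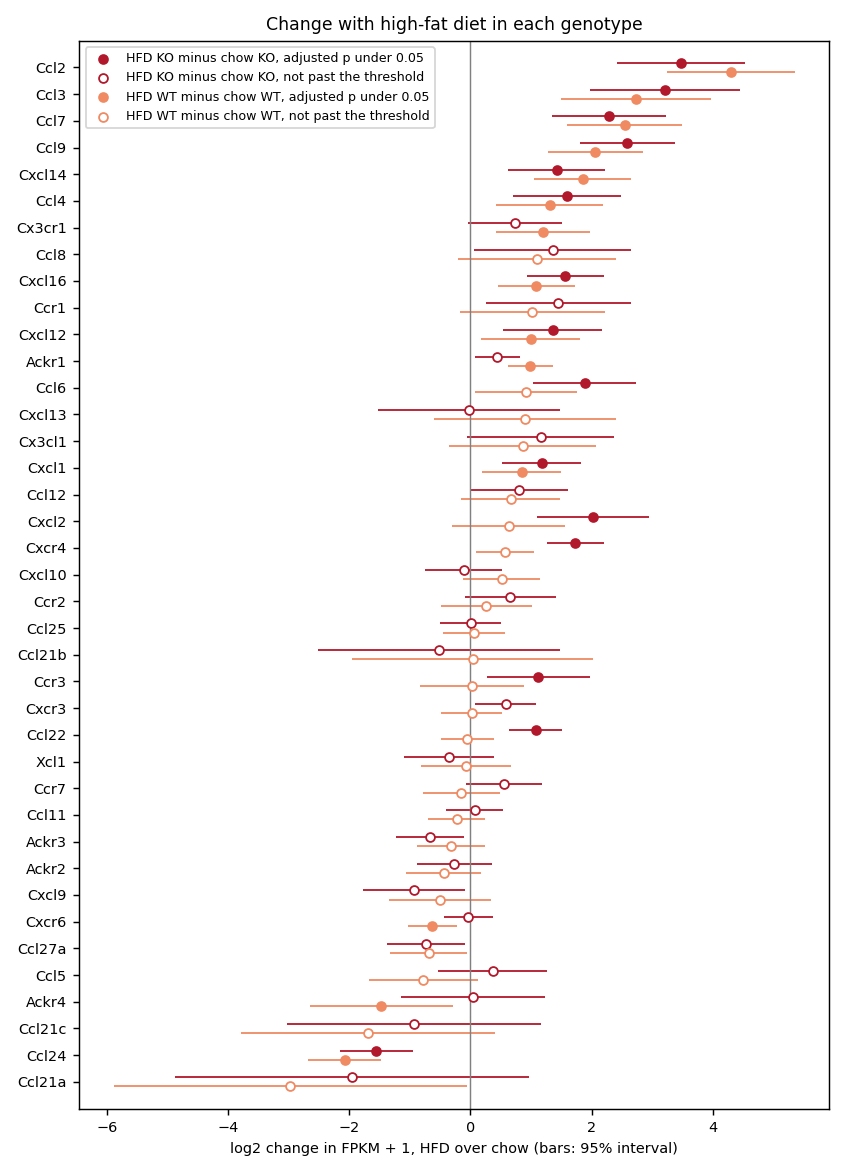
Log2 change of FPKM + 1 on the high-fat diet over chow for 39 of the 40 tested members, in KO-labelled and WT-labelled mice, with 95% intervals; filled points passed an adjusted p of 0.05. Ccl2 has the largest change in both genotypes, Ccl24 is filled under 0 in both, and the Ccl21 genes have the widest intervals.

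The ligands of lymphocytes and lymphoid tissue described next did not pass the test with diet in either genotype over all 16 libraries. Of those described above with T or NK cells among their targets, Ccl4 and Cxcl16 passed it in both genotypes and Ccl22 in KO-labelled mice. This does not list every ligand above that can act on such cells. Ccl5, a chemoattractant made by T cells, averaged 10.04 ± 6.38 FPKM in HFD KO and 8.64 ± 5.55 FPKM in HFD WT, against 7.31 ± 3.12 FPKM in chow KO and 14.1 ± 3.68 FPKM in chow WT. The interferon-induced ligands of Cxcr3 also missed the threshold: Cxcl9 averaged 5.75, 9.60, 10.9 and 13.1 FPKM, and Cxcl10 1.85, 1.74, 2.16 and 0.838 FPKM, in HFD KO, HFD WT, chow KO and chow WT. Cxcl9 passed it in KO-labelled mice, as lower, after median-of-ratios scaling or quantile normalization. Exons of Cxcl10 overlap Art3 on the other strand over 133 bases. Cxcl13, which draws B cells, ranged from 0.74 to 6.56 FPKM in 15 libraries and stood at 34.19 FPKM in HFD WT replicate 3. Xcl1, made by T and NK cells, and Ccl25, a ligand of gut-homing cells, had group means between 0.730 and 1.27 FPKM and between 0.910 and 1.07 FPKM; their exons overlap Gm20743 over 98 and Elavl1 over 204 bases. Ccl27a averaged 4.11 and 2.35 FPKM in HFD KO and HFD WT, against 7.05 and 4.43 FPKM in chow KO and chow WT, with log2 changes of −0.73 ± 0.30 in KO-labelled (adjusted p = 0.0643) and −0.69 ± 0.30 in WT-labelled mice (adjusted p = 0.0768). Ccl27a passed the test as lower in both genotypes under those 2 scalings and without the 3 libraries with epididymal genes (log2 change −1.098 ± 0.29, adjusted p = 0.00718 in KO-labelled, and adjusted p = 0.0207 in WT-labelled mice). It shares 15.9% of its 50-base words with Ccl27b, so its level is uncertain.

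The Ccl21 genes encode nearly identical ligands of Ccr7 made in lymph vessels and lymph nodes. Ccl21a stood at 0.16, 32.38, 2.75 and 80.23 FPKM in HFD KO and at 0.3, 7.61, 0 and 80.71 FPKM in HFD WT libraries. It stood at 65.41, 97.09, 22.63 and 16.34 FPKM in chow KO and at 59.86, 26.55, 27.32 and 72.1 FPKM in chow WT libraries. In each HFD group some libraries were near 0 and replicate 4 was near 80 FPKM, and no chow library was under 16.34 FPKM. The log2 change was −1.96 ± 1.37 in KO-labelled (adjusted p = 0.272) and −2.97 ± 1.37 in WT-labelled mice (adjusted p = 0.0933), and without the 3 libraries with epididymal genes Ccl21a passed the test in KO-labelled (log2 change −3.85) and WT-labelled mice (−2.97), with an adjusted p of 0.0429 in both. Ccl21b ranged from 0 to 21.97 FPKM and Ccl21c from 0 to 15.36 FPKM. Of the 50-base words of Ccl21b, 71.7% also lie in Ccl21a, so the split of reads among these genes is uncertain.

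The second comparison sets the KO-labelled mice against the WT-labelled mice on the high-fat diet. By limma 0 of the 40 members passed the test, against 0.0316% of all tested genes (4 genes), and 6 members had an unadjusted p under 0.05, where 11.8% of all tested genes did. The median log2 difference of the members was 0.25, against 0.09 over all genes. Groups did not overlap for 2 members, Cxcr6 and Ccl22, both with higher values in HFD KO, where the background was 6.83% (5.81% higher). Cxcr6 stood at 2.35, 1.29, 2.13 and 3.07 FPKM in HFD KO, against 0.7, 1.11, 1.01 and 1.22 FPKM in HFD WT libraries (log2 difference 0.65 ± 0.19, adjusted p = 0.302). Ccl22 stood at 3.38, 1.93, 3.69 and 2.67 FPKM in HFD KO, against 1.34, 1.86, 0.94 and 1.85 FPKM in HFD WT libraries (log2 difference 0.64 ± 0.21, adjusted p = 0.313). The other 4 were Cxcl2 (log2 difference 1.35 ± 0.43), Ccl12 (0.88 ± 0.38), Ccl24 (0.65 ± 0.28) and Ackr3 (−0.61 ± 0.26), with adjusted p between 0.315 and 0.39. For the monocyte ligand Ccl2 the log2 difference was −0.54 ± 0.49 (95% interval −1.60 to 0.51), and for Ccr2 it was 0.21 ± 0.35 (95% interval −0.54 to 0.96). Without the 3 libraries with epididymal genes it was 0.40 ± 0.42 for Ccl2 (adjusted p = 0.632) and 1.01 ± 0.26 for Ccr2 (adjusted p = 0.141).

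Cxcl2 was high in HFD KO replicates 1 and 3, and 3 members under the filter, chosen after their values were seen, were highest in the same libraries. Cxcl3, another Cxcr2 ligand, stood at 8.26, 0.35, 2.52 and 0.08 FPKM in HFD KO, against 0.07, 0.07, 0.28 and 0.07 FPKM in HFD WT libraries. Cxcl5, also a Cxcr2 ligand, stood at 12.36, 0.51, 7.89 and 0.1 FPKM in HFD KO, against 0, 0, 0.51 and 0.04 FPKM in HFD WT libraries. Cxcr2 itself stood at 7.22, 0.99, 2.88 and 0.59 FPKM in HFD KO, against 0.67, 0.52, 2.21 and 0.38 FPKM in HFD WT libraries. Replicates 1 and 3 exceeded every HFD WT library for all 4 genes, and replicates 2 and 4 did not for Cxcl2, Cxcl5 or Cxcr2. The tested ligand Cxcl1 is not among these 4 genes and did not share this pattern. It was highest in HFD KO replicate 1 (5.41 FPKM), but HFD WT replicate 2 held 3.44 FPKM, against a HFD KO median of 1.555 FPKM. Its log2 difference by limma was 0.19 ± 0.31 (adjusted p = 0.845). The 9 listed neutrophil genes summed to 278, 15.6, 94.1 and 33.7 FPKM in HFD KO, against 44.2, 21.6, 57.1 and 39.6 FPKM in HFD WT libraries, and their part in these values was not tested. Replicates 2 and 4 of HFD KO are those with epididymal genes. Without the 3 such libraries, Cxcl2 passed the test between genotypes (log2 difference 2.39, adjusted p = 0.00538, where 0.316% of all tested genes passed); the 2 HFD KO libraries left are then the 2 in which Cxcl2 was high.

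**Figure D4:**
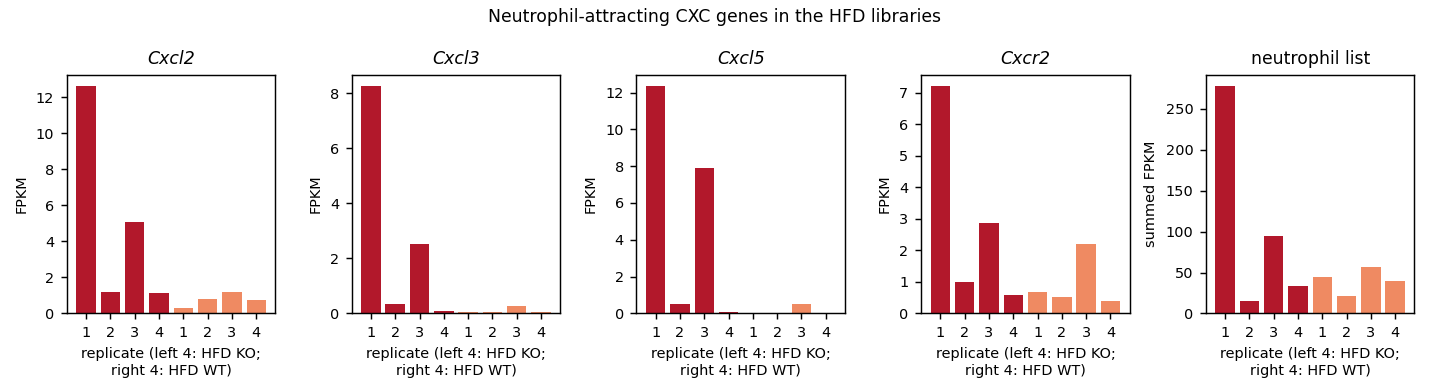
FPKM of Cxcl2, Cxcl3, Cxcl5 and Cxcr2 and the summed FPKM of 9 neutrophil markers in each HFD library, HFD KO in the left 4 bars and HFD WT in the right 4 of each panel. HFD KO replicate 1 has the tallest bar and replicate 3 the next tallest in all 5 panels. Cxcl1 is not drawn.

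The third comparison sets the same labels against each other on chow. Of the 40 members 1 passed the test, Cxcr4, which fell, against 1.41% of all tested genes (0.979% lower), and 9 had an unadjusted p under 0.05, where 14.7% of all tested genes did. Cxcr4 averaged 4.71 ± 1.16 FPKM in chow KO, against 12.6 ± 2.36 FPKM in chow WT (SD, n = 4 each), with no overlap (log2 difference −1.26 ± 0.22, adjusted p = 0.0116). The call was lost without chow WT replicate 2 (adjusted p = 0.0536) or replicate 4 (adjusted p = 0.0515). Groups did not overlap for 7 members, 2 higher and 5 lower in chow KO, where the background was 15.2% (8.94% higher and 6.25% lower). The 2 most abundant members were among the 5. Ccl6 averaged 89.4 ± 12.2 FPKM in chow KO and 190.0 ± 18.4 FPKM in chow WT (log2 difference −1.08 ± 0.40, adjusted p = 0.228), and Ccl9 27.2 ± 2.56 and 51.3 ± 3.93 FPKM in the same groups (−0.89 ± 0.37, adjusted p = 0.279). The pooled spread in the fit includes the wide HFD groups. Fitted on the chow groups alone, 3 members passed the test, Cxcr4, Ccl6 and Ccl9, all lower in chow KO, where 2.82% of all tested genes passed. Without the 3 libraries with epididymal genes Cxcr4 and Ackr4 passed it, both lower, where 1.91% of all tested genes passed. Ccl5 (−0.93 ± 0.42), Ccl22 (−0.48 ± 0.21), Cxcl10 (0.70 ± 0.30), Ackr1 (0.47 ± 0.17), Cx3cr1 (0.78 ± 0.36) and the uncertain Ccl21b (2.23 ± 0.93) had unadjusted p under 0.05 and adjusted p between 0.229 and 0.336. Macrophage markers had 0 of 10 members past the threshold here, and their sums were 686 to 834 FPKM in chow KO and 828 to 906 FPKM in chow WT.

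The interaction asks whether the genotype labels differed more on one diet than on the other. By limma 0 of 40 members passed, against 0.292% of all tested genes (37 genes), and 5 had an unadjusted p under 0.05, where 10.1% of all tested genes did. They were Ccl22 (1.13 ± 0.29, adjusted p = 0.156), Cxcr4 (1.17 ± 0.32, adjusted p = 0.177), Cxcl2 (1.39 ± 0.61), Cxcr6 (0.59 ± 0.27) and Ackr1 (−0.54 ± 0.24). Over all 16 libraries, Cxcr4, Ccl6, Ccl22, Cxcl2 and Ccr3 passed the diet test in KO-labelled and not in WT-labelled mice, and Ackr1, Ackr4, Cx3cr1 and Cxcr6 the other way round; they are not shown to differ between genotypes. Without the 3 libraries with epididymal genes, Cxcr4, Ccl6, Cxcl2, Ackr1, Ackr4 and Cx3cr1 passed the diet test in both genotypes. In that fit 3 members, Ccl22, Cxcl2 and Cxcr4, passed the interaction test, where 0.513% of all tested genes did (65 genes). HFD KO is represented there by replicates 1 and 3 only.

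**Figure D5:**
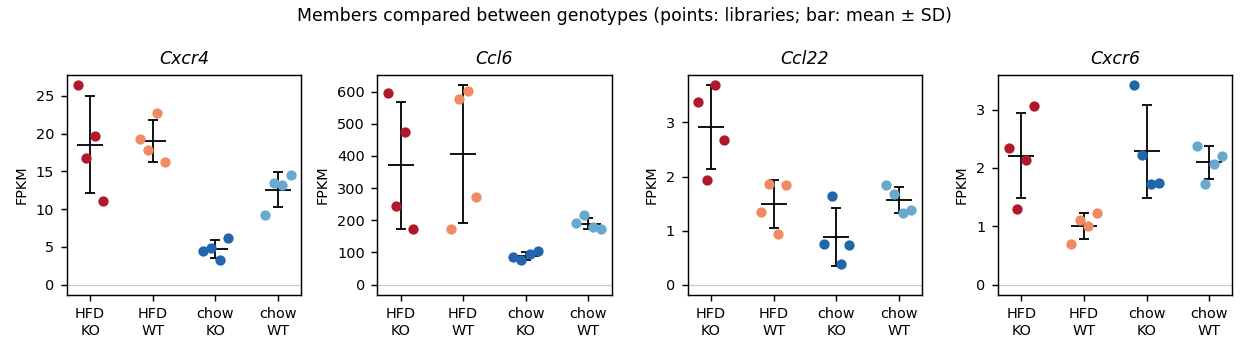
FPKM of Cxcr4, Ccl6, Ccl22 and Cxcr6 by group, with each point a library and the bar the mean ± SD of 4 libraries. Chow KO lies under chow WT without overlap for Cxcr4 and Ccl6, and HFD KO lies above HFD WT without overlap for Ccl22 and Cxcr6, of which Cxcr4 alone passed the test.

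The 21 members under the filter did not enter the tests above. With no filter, where every gene above 0 in any library was tested, 4 of them passed with diet or between labels, all at low levels or through a few high libraries: Ccr1l1 (adjusted p = 0.0347), Cxcl3 (0.0479) and Cxcl5 (0.0374) were higher in HFD KO than in chow KO, and Ccr4 was lower in HFD WT (0.000464) and in chow KO (0.043) than in chow WT. In those 3 comparisons 24.4%, 26.6% and 0.882% of all genes passed with no filter. Of these, 15 stayed under 1 FPKM in every library: the ligands Ccl1, Ccl19, Ccl20, Ccl26, Ccl27b, Cxcl15 and Cxcl17 and the receptors Ccr1l1, Ccr4, Ccr6, Ccr8, Ccr9, Ccr10, Cxcr1 and Xcr1. Ccr4, the receptor of Ccl22, reached at most 0.18 FPKM, and Xcr1, a receptor of cross-presenting dendritic cells, at most 0.87 FPKM. The other 6 reached 1 FPKM in 1 to 3 libraries, Cxcl3, Cxcl5 and Cxcr2 in those given above. Ccl28, a mucosal epithelial chemokine, stood at 17.47 FPKM in chow KO replicate 2, the library with the most epididymal RNA, and between 0.07 and 0.8 FPKM in the other 15. Ccl17, a ligand of Ccr4 made by dendritic cells, ranged from 0 to 3.68 FPKM, and Cxcr5, the B cell receptor of Cxcl13, from 0.05 to 1.34 FPKM.

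Of 36 listed genes of chemokine receptor signalling, 26 rose and 2 fell in KO-labelled mice, and 25 rose and 1 fell in WT-labelled mice, where 23.5% and 24.6% of all tested genes rose. Their median log2 changes were 0.99 and 0.85, against 0.08 and 0.06 over all tested genes. Rgs1, which shortens chemokine receptor signals, rose by 3.74 and 4.17 on the log2 scale in KO-labelled and WT-labelled mice, and Dock2, which drives leukocyte migration, by 2.13 and 1.97. Gng2, a G protein subunit, rose by 1.77 in KO-labelled mice, and Grk5, a receptor kinase, by 0.93 in WT-labelled mice. Of 11 listed NF-kB subunits and inhibitors, 8 rose in KO-labelled mice, and 6 rose and 1 fell in WT-labelled mice. Bcl3, a nuclear NF-kB cofactor, rose by 1.65 and 1.52, and Nfkb2 by 0.97 and 1.26, in KO-labelled and WT-labelled mice. Tnfaip3, an inhibitor of the pathway, rose by 0.73 in KO-labelled mice, and the inhibitor Nfkbia fell by 0.78 in WT-labelled mice. No gene of these 2 lists passed the test between genotypes on either diet or in the interaction.

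Of 11 tested genes of the chemoattractant system outside the symbol rule, 4 rose in KO-labelled mice, and 5 rose and 1 fell in WT-labelled mice. Over all tested genes, 23.5% rose and 15.3% fell in KO-labelled mice, and 24.6% rose and 17.2% fell in WT-labelled mice. These shares are the background for every list in this paragraph, and no list was tested against them. C5ar1 and C5ar2, receptors of complement C5a, rose by 3.24 and 2.02 in KO-labelled and by 2.32 and 2.01 in WT-labelled mice, and Ccrl2, an atypical receptor, rose by 1.12 in KO-labelled mice. Cmklr1, the chemerin receptor, fell on the high-fat diet in WT-labelled mice (−1.74 ± 0.20, adjusted p = 2.83e-05) and was lower in chow KO than in chow WT (−1.38 ± 0.20, adjusted p = 0.0023). Its interaction was 1.60 ± 0.28 (adjusted p = 0.0238). Among cell type markers, lipid-associated macrophage genes such as Trem2, Lgals3 and Itgax rose for 9 of 10 members in both genotypes, and adipocyte genes, Adrb3 and Pparg in both genotypes among them, fell for 8 of 10 in KO-labelled and 7 of 10 in WT-labelled mice, with Adipoq in KO-labelled and Pnpla2 in WT-labelled mice also among the leading ones. Adipocyte genes summed to between 3423 and 14417 FPKM in HFD KO, 5511 and 17759 FPKM in HFD WT, 12159 and 23670.2 FPKM in chow KO, and 23922 and 25766 FPKM in chow WT libraries. Of 9 fibroblast genes 4 rose in each genotype, led by Pdgfrb, Col1a1 and Col3a1 in KO-labelled and by Lum, Col1a1 and Col3a1 in WT-labelled mice, and 2 fell in WT-labelled mice. Of 7 mesothelial genes 4 fell in KO-labelled mice (Lrrn4, Msln and Upk3b leading) and 5 in WT-labelled mice (Upk3b, Lrrn4 and Wt1 leading). Endothelial genes had 1 fall in each genotype, Lyve1, and 1 rise in KO-labelled mice, Vwf. Of 7 tested dendritic cell genes 2 rose (Fscn1, Flt3) and 1 fell (Zbtb46) in KO-labelled mice, and 1 rose (Fscn1) and 3 fell, Siglech and Itgae among them, in WT-labelled mice. Of 5 tested neutrophil genes S100a8 rose and Elane fell in both genotypes, and Csf3r rose in KO-labelled mice. No B cell or epididymis gene passed the test, with 5 tested in each list.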

How the data were processed

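RNA-seq was done by the authors on 16 libraries; per the submitters' processing notes STAR 2.7 and the builds GRCm38.p6 and mm10 were used, and the sources used here name no counting tool, annotation or strand. The deposited values are FPKM per gene, rounded by the authors. Members were taken by symbol, and the 14 lists of cell type and pathway genes (167 entries) were written by hand; both were chosen with earlier results of these data known.

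Values were turned into log2(FPKM + 1). Genes with at least 1 FPKM in at least 4 libraries (12667) were fitted with limma 3.58.1 in R 4.3.3, with 4 group means, empirical Bayes moderation and a variance trend, and p-values were Benjamini-Hochberg adjusted over all 12667 at a threshold of 0.05. The fit was tested on simulated data. All members above the filter are named. By rule, values per library are printed for the 12 with the largest changes with diet past the threshold, for those past it between genotypes, and for Ccl2 and Ccr2. Outside these rules, values per library are also printed for Cx3cr1, Cxcr6, Ccl22, Ackr4, Ccl21a, Cxcl3, Cxcl5 and Cxcr2. A single member stays in the fit and the counts and is not reported here. Up to 3 genes with the smallest p are named per list. Promoter windows are from RefSeq (GRCm38.p6), and exon overlaps and shared 50-base words from GENCODE M21. Alternatives were 3 scalings, smaller pseudocounts (0.1, 0.5), a filter at a mean of 5 FPKM or none at all, array weights, a fit with no variance trend, a replicate block, a threshold of 0.1, each library left out, 2 or 3 libraries with epididymal genes left out, and the 2 groups alone.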

Additional observations from a re-analysis of the deposited data

Results flagged for a closer look

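In 12 of 160 groups of 4 libraries, 1 library stood far from the other 3 of its group. Independent, normally distributed values would give about 1 in 20. The groups share the same 16 libraries and FPKM need not be normal, so that rate is no measure of these 12. Ackr3 was 27.29 FPKM in HFD KO replicate 2, with the next at 12.69 FPKM, and 13.16 FPKM in HFD WT replicate 3, with the next at 26.69 FPKM. Ackr4 was 14.65 FPKM and Ccl5 19.53 FPKM in HFD KO replicate 4, with the next at 1.22 and 8.1 FPKM. HFD WT replicate 4 held 80.71 FPKM of Ccl21a, 12.05 FPKM of Ccl21b and 8.16 FPKM of Ccl21c, with the next at 7.61, 0 and 0.84 FPKM. HFD WT replicate 3 held 34.19 FPKM of Cxcl13 and 6.26 FPKM of Cx3cl1, with the next at 2.52 and 1.68 FPKM. HFD WT replicate 2 held 3.44 FPKM of Cxcl1, with the next at 1.33 FPKM. Cx3cl1 was 10 FPKM in chow KO replicate 2, with the next at 0.39 FPKM, and Ccl24 was 22.43 FPKM in chow WT replicate 1, with the next at 13.74 FPKM.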

How the results depend on the processing

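Under the alternatives, 57 differences were followed one by one: those with an adjusted p under 0.05, those between labels or in the interaction with an unadjusted p under 0.05, and those of Ccl2 and Ccr2. Of their values 1610 kept their direction and side of the threshold, 50 lost a call, 19 gained one and 3 reversed; calls gained by other members are in the counts given next. The reversed ones were differences between HFD KO and HFD WT that passed no test: Ccl2 became 0.40 without the 3 libraries with epididymal genes, and Ccr2 became −0.11 without HFD KO replicate 1 and −0.0017 without HFD KO replicate 3, in a range from −0.11 to 0.49 over all fits that left out 1 library. Without those 3 libraries the members called became 1 (1 higher) between HFD KO and HFD WT, 2 (both lower) on chow, 28 (23 higher, 5 lower) with diet in KO-labelled mice, 5 lower with diet in WT-labelled mice, and 3 (all higher) in the interaction; without the 2 with most such genes they became 2 (both lower) on chow and 3 lower in KO-labelled mice. Array weights gave 7 (1 higher, 6 lower) on chow, 24 (19 higher, 5 lower) in WT-labelled mice, 26 (4 lower) in KO-labelled mice and 3 (all higher) in the interaction. With these weights Cxcl10 was among those called on chow (higher, adjusted p = 0.0436 by limma) and in WT-labelled mice. On chow, no filter gave 2 and the 2 groups alone 3, all lower. Falls with diet became 1 (mean of at least 5 FPKM) or 5 (threshold of 0.1) in WT-labelled mice, and 4 in KO-labelled mice under median-of-ratios scaling, quantile normalization or the threshold of 0.1. The cause of these changes was not tested.

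Leaving out each library gave 0 to 0 members between HFD KO and HFD WT, 0 to 1 on chow (0 to 1 lower), 12 to 18 in WT-labelled mice (10 to 14 higher, 2 to 4 lower), 15 to 23 in KO-labelled mice (14 to 19 higher, 1 to 4 lower) and 0 to 1 in the interaction (0 to 1 higher). The 1 call in the interaction was Cxcr4 without HFD KO replicate 4 (adjusted p = 0.0472), and the most calls in KO-labelled mice also came without that library. Some scalings moved the median of all genes by over 0.1 on the log2 scale: by −0.14 (median of ratios) and −0.12 (quantile) between HFD KO and HFD WT, and by −0.11 and −0.15 (quantile) with diet in WT-labelled and KO-labelled mice.

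Deviations of same-numbered libraries from their group means had correlations from −0.63 to 0.37 between HFD KO and HFD WT. So few values of mixed sign cannot decide whether the numbers pair mice, and the labels do not say. With a replicate block, 17 members were called with diet in KO-labelled and 14 in WT-labelled mice, 1 on chow, 0 between HFD KO and HFD WT and 0 in the interaction.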

Other observations

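Summed over all 61 members, chemokine and receptor RNA came to 1819.8, 810.5, 1245 and 724 FPKM in the HFD KO libraries and 643, 1454, 1502 and 987 FPKM in the HFD WT libraries. It came to 464, 515, 376 and 413 FPKM in the chow KO libraries and 619, 552, 531 and 559 FPKM in the chow WT libraries. Every HFD library was above every chow library, and every chow KO library was under every chow WT library; these sums were not tested. The neighbouring genes Ccl6 and Ccl9 alone made up 36.0% to 54.1% of the sum in HFD KO, 43.3% to 67.2% in HFD WT, 19.3% to 32.6% in chow KO and 39.1% to 49.3% in chow WT libraries.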
